A study of Homo sapiens with 24 samples.

Results

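The genes described here are 37 members of mismatch repair, base excision repair and nucleotide excision repair, out of 18889 genes in the deposited expression table. They were chosen by gene symbol from the 3 pathways and comprise 5 mismatch repair, 19 base excision repair and 13 nucleotide excision repair genes. RNA was sequenced from 24 cultures of 3 human lines that were derived from breast cancers and express the estrogen receptor (ER+), namely HCC1500, MDA-MB-175 and ZR-75-30 (spelled ZR7530 in the labels). Each line was kept at low glucose (LG, 5 mM) or at high glucose (HG, 25 mM), the latter serving as a culture model of hyperglycemia, for 48 h with 4 replicates per group. By the study's methods the cells were first conditioned in low-glucose medium and the treatment media held no serum, so the absence of serum was common to all 6 groups. Each line derives from 1 tumor, and the labels do not say whether the replicates came from separately grown cultures, so p-values measure only the spread between these samples. The question was whether hyperglycemia changes the expression of DNA repair genes in ER+ cells.

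The 3 pathways remove different lesions. Mismatch repair corrects mispaired bases and small loops left by the replicative polymerases. In base excision repair, a glycosylase cuts out a damaged base, an endonuclease opens the strand, and a polymerase and a ligase fill and seal the gap, with poly(ADP-ribose) polymerases marking the break. Nucleotide excision repair finds bulky lesions that distort the helix, either across the genome or where RNA polymerase stalls, opens the DNA with TFIIH and removes a short stretch of the strand.

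Values are read counts scaled by the authors to be comparable between samples, called normalized read counts below. Each value could be returned to a whole number of reads, and the recovered depth was 9140024 to 17998819 reads per sample, so that 3 reads correspond to 0.95 to 2.29 units. The lowest count of any member in any sample was 9 reads (NEIL3 in HCC1500 at high glucose). In HCC1500 the depth of the groups did not overlap, with 13190982 to 17998819 reads at low and 9423472 to 12140912 reads at high glucose. HCC1500 HG replicate 3 stood apart from its group, with a mean correlation of 0.944 with the other 3 cultures. Every member called in HCC1500 with all samples is therefore given with and without it. Members called only without it are counted, and not all of them are named. TXNIP, a gene long known to respond to glucose, rose in all 3 lines, with log2 changes of 0.39, 0.76 and 1.02. ARRDC4, also chosen to check the glucose labels, rose in MDA-MB-175 and ZR-75-30 (0.41 in each). Its change was 0.39 in HCC1500 (limma, adjusted p = 0.0704), where it was called only without HG replicate 3. All 7 luminal epithelial markers were expressed, with a summed level of 24006 to 58041. ESR1, which encodes the estrogen receptor, had group means of 258 to 3616. Markers of other cell types were low, with summed levels of 78.1 to 256 for 4 fibroblast genes, mostly COL1A1, and 0 to 77.7 for 2 endothelial genes. CD68, the 1 leukocyte marker of 4 that was analysed, rose at high glucose in MDA-MB-175 (0.67 to 3.99 at low and 3.12 to 8.32 at high glucose) and in ZR-75-30 (4.58 to 6.82 against 33.6 to 43.9), and without HG replicate 3 also in HCC1500 (log2 change 0.95). In MDA-MB-175, CDH5 rose (0.61), and VWF (-0.48) and COL1A2 (-0.78) fell. The part of these markers in the results was not tested.

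Of the 37 members, 5 fell at high glucose in all 3 lines, namely MSH6, UNG, NEIL3, LIG1 and PARP1. Because the results below turn on these 5 genes, the 250 bases before their annotated start are shown (RefSeq, GRCh38.p14), with capitals marking the words CCAAT and GGGCGG and 4 E2F words (TTTCCCGC, TTTCGCGC, TTTGCCGC and TTTGGCGC) on either strand. The windows are chr2:47782895-47783144 on the plus strand for MSH6, chr12:109097347-109097596 on the plus strand for UNG, chr4:177309624-177309873 on the plus strand for NEIL3, chr19:48170345-48170594 on the minus strand for LIG1 and chr1:226408094-226408343 on the minus strand for PARP1, each read 5′ to 3′ toward the gene.
MSH6: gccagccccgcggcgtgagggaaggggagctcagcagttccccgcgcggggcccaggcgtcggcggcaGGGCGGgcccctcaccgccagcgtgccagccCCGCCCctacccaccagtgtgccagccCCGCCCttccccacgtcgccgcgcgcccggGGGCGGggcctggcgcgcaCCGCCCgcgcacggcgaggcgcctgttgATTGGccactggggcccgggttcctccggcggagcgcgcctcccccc
UNG: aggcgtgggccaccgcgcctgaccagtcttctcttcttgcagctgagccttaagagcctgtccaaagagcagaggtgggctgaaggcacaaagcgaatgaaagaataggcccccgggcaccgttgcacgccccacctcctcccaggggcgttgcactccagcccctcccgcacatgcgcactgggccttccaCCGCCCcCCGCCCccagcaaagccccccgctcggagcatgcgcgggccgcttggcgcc
NEIL3: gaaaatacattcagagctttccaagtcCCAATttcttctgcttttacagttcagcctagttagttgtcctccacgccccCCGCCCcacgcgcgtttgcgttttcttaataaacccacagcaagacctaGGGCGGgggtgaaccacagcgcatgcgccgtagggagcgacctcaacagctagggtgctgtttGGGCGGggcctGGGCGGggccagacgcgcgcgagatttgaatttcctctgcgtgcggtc
LIG1: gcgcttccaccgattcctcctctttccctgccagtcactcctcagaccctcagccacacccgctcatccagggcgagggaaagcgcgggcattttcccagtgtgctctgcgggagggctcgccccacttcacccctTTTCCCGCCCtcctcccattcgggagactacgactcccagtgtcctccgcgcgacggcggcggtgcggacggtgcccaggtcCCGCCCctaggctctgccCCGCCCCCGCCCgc
PARP1: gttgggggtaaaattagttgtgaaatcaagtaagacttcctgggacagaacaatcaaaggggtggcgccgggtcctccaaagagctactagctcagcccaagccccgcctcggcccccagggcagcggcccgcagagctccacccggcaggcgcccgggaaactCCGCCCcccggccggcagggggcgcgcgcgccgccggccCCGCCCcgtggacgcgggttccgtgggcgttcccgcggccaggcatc
All 5 windows held GGGCGG, with 5 copies for MSH6, 2 for UNG, 4 for NEIL3, 4 for LIG1 and 2 for PARP1. In LIG1 a copy overlaps the E2F word, and other copies directly adjoin one another. Promoters were found for 34 of the 37 members. GGGCGG stood in 24 of the 34 (70.6%) against 42.3% of 27305 promoters, and CCAAT in 17 (50%) against 33.0%. An E2F word stood in 4 of 34 (11.8%; MSH3, PMS2, LIG1 and XPC) against 2.8% of all promoters, so that LIG1 was the 1 gene of the 5 with such a word. The E-box word CACGTG was found in 6 of 34 (17.6%) against 6.5%. These are matches of letters in a fixed window and describe no binding.

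At high glucose calls toward lower expression outnumbered those toward higher expression in every line. For MDA-MB-175 cells, 14 of 37 members fell (37.8%, against 13.7% of 17029 genes tested) and 1 rose (2.7%, against 11.9%). In ZR-75-30, 11 fell (29.7%, against 22.7% of 15834 genes) and 8 rose (21.6%, against 23.4%), so the share that rose was near that of all genes. In HCC1500, 10 fell (27%, against 13% of 16361 genes) and 2 rose (5.41%, against 7.46%). Without HCC1500 HG replicate 3, 26 fell (70.3%, against 37.7% of 16235 genes) and 2 rose (5.41%, against 20.9%). The median log2 change of the members was -0.14 for MDA-MB-175 (-0.02 over all genes), -0.08 for ZR-75-30 (0.01) and -0.26 for HCC1500 (-0.06). These calls rest on limma with a Benjamini-Hochberg adjusted p under 0.05 over all genes of the line, and no test of the list as a whole was made. Changes are given throughout as HG minus LG on the log2(value + 1) scale, with the standard error (SE). The counts depended on scaling. In MDA-MB-175, 13 members fell under median-of-ratios rescaling and 16 on the CPM scale, with 1 higher in both, and the calls over all genes went from 2338 lower and 2030 higher to 2069 and 2339 under the former. After median-of-ratios rescaling 7 members fell and 2 rose in HCC1500, where the calls over all genes went from 2129 lower and 1221 higher to 1800 (11%) and 1723 (10.5%). Rescaled to CPM, 13 fell and 0 rose in HCC1500, and 15 fell and 7 rose in ZR-75-30. Calls also depended on single cultures. Without MDA-MB-175 HG replicate 3, 9 members were called in that line (8 lower), and leaving out any 1 low-glucose culture of HCC1500 left 6 or 7 called there. Overlap of the groups was counted as well. In MDA-MB-175, 14 members had every high-glucose culture below every low-glucose culture (13.9% of all genes did) and 2 had every one above (12.7%). The counts were 10 below (21.1%) and 5 above (20.9%) for ZR-75-30, 10 (18.7%) and 2 (13.7%) for HCC1500, and 23 (36.8%) and 2 (21%) for HCC1500 without HG replicate 3. In these bulk samples, fewer cells of a kind and less RNA per cell cannot be told apart.

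**Figure D1:**
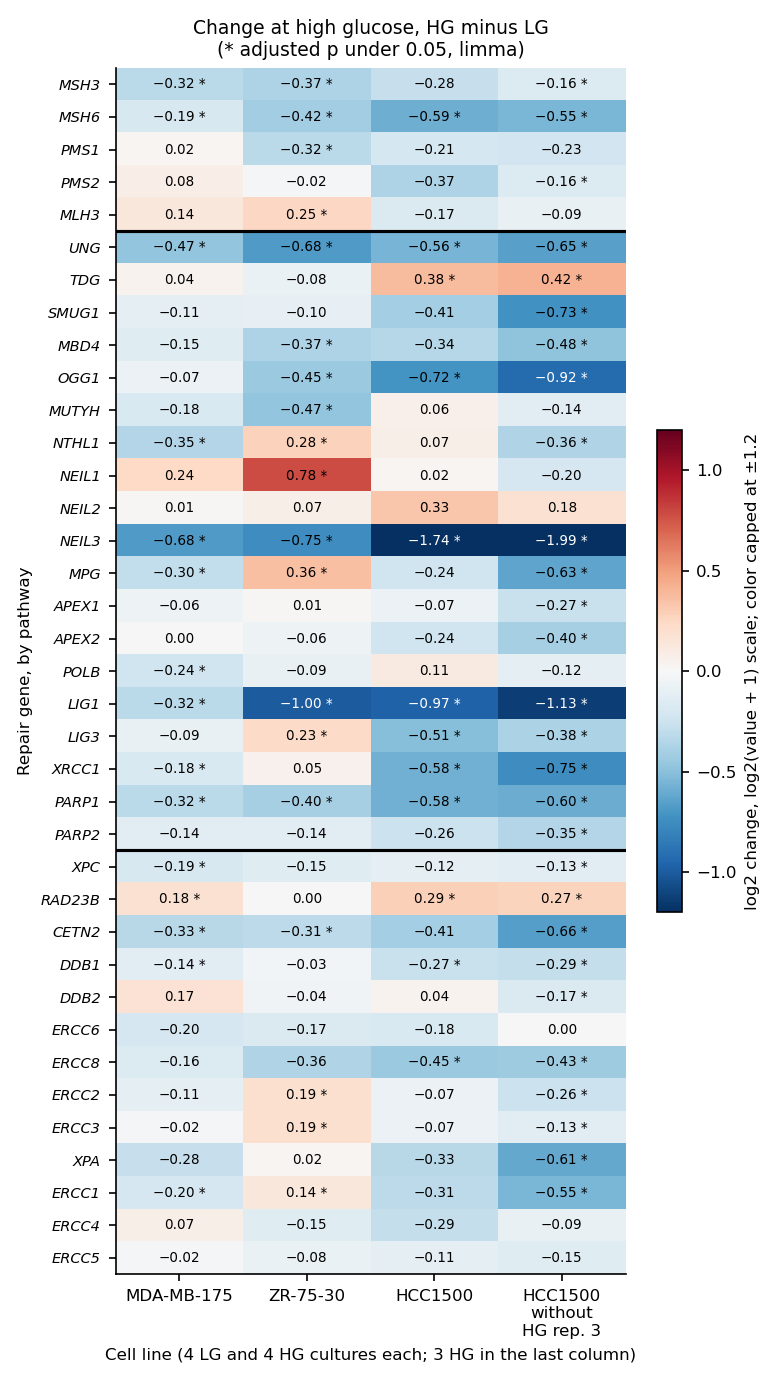
Change of each repair gene at high glucose, as HG minus LG on the log2(value + 1) scale, in rows by pathway (mismatch, base excision and nucleotide excision repair from top to bottom, divided by black lines) and in columns by line, with asterisks for an adjusted p under 0.05 by limma. MSH6, UNG, NEIL3, LIG1 and PARP1 carry an asterisk and a negative value in every column.

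Mismatch repair was represented by MSH3 and MSH6, which recognise mispairs and loops as partners of a shared subunit, and by PMS1, PMS2 and MLH3, which belong to the endonuclease complexes that act after recognition. Of these 5 genes, 2 fell in MDA-MB-175, 3 fell and 1 rose in ZR-75-30, and 1 fell in HCC1500 (3 without HG replicate 3). Over all genes, 13.7% fell in MDA-MB-175, 22.7% fell and 23.4% rose in ZR-75-30, and 13% fell in HCC1500 (37.7% without that culture). MSH6 measured 588, 582, 620 and 631 at low and 511, 546, 534 and 533 at high glucose in MDA-MB-175. ZR-75-30 had 812, 806, 809 and 815 at low and 603, 613, 606 and 609 at high glucose, and HCC1500 469, 440, 465 and 446 against 319, 328, 274 and 287. Every high-glucose culture was below every low-glucose culture of its line. The log2 change was -0.19 ± 0.05 (SE, adjusted p = 0.00615) in MDA-MB-175, -0.42 ± 0.04 (SE, adjusted p = 3.5e-08) in ZR-75-30 and -0.59 ± 0.09 (SE, adjusted p = 0.00195) in HCC1500, or -0.55 ± 0.05 (SE, adjusted p = 2.2e-08) without HG replicate 3. MSH3 fell in MDA-MB-175 (log2 change -0.32 ± 0.08 SE, adjusted p = 0.00612) and ZR-75-30 (-0.37 ± 0.07 SE, adjusted p = 0.00034) and was -0.28 in HCC1500 (adjusted p = 0.168; -0.16, adjusted p = 0.021, without HG replicate 3). MSH6 shares exon bases with FBXO11 on the opposite strand. Such sharing was common, with 24 of the 37 members sharing exon bases with another annotated gene on either strand, and not all are named. Among the others are LIG1 (425 bases), XPC (1140), DDB1 (493) and ERCC4 (2227), each on the opposite strand. The endonuclease partners gave calls in both directions. In ZR-75-30 PMS1 fell (-0.32 ± 0.12 SE, adjusted p = 0.0413), a call lost with DESeq2 (adjusted p = 0.0804), and MLH3 rose (0.25 ± 0.06 SE, adjusted p = 0.00178). PMS2 was called in no line with all samples.

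Base excision repair begins with the glycosylases, of which 11 were members. In MDA-MB-175 4 of them fell, in ZR-75-30 5 fell and 3 rose, and in HCC1500 3 fell and 1 rose (7 and 1 without HG replicate 3). The shares that fell were 36.4%, 45.5% and 27.3% (63.6% without that culture), against 13.7%, 22.7% and 13% of all genes (37.7%). The shares that rose in ZR-75-30 (27.3%) and HCC1500 (9.09%) were near those of all genes (23.4% and 7.46%). Without HG replicate 3, 9.09% rose in HCC1500, against 20.9% of all genes. UNG, which removes uracil from DNA, measured 547, 565, 560 and 532 at low and 404, 379, 401 and 411 at high glucose in MDA-MB-175. The values were 766, 774, 753 and 799 against 522, 482, 505 and 428 in ZR-75-30 and 486, 483, 502 and 487 against 337, 305, 397 and 295 in HCC1500. The groups did not overlap in any line, and HG replicate 3 was the highest of the HCC1500 high-glucose cultures. UNG fell, with log2 changes of -0.47 ± 0.05 (SE, adjusted p = 1.7e-06) in MDA-MB-175, then -0.68 ± 0.05 (SE, adjusted p = 7.6e-09) in ZR-75-30, and -0.56 ± 0.10 (SE, adjusted p = 0.00614) in HCC1500, or -0.65 ± 0.05 (SE, adjusted p = 1.1e-09) without HG replicate 3.

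NEIL3, a glycosylase for oxidized bases that is known for its expression in dividing cells, had the most negative change of the 37 members in MDA-MB-175 and HCC1500. Its values were 73.4, 77.7, 64.3 and 85.5 at low and 54.9, 48.3, 39.0 and 44.2 at high glucose in MDA-MB-175 and 56.5, 48.3, 54.1 and 53.4 against 35.4, 31.7, 25.1 and 33.6 in ZR-75-30. In HCC1500 they were 29.3, 26.7, 30.7 and 18.9 against 5.31, 4.97, 12.6 and 7.39. All high-glucose cultures lay below the low-glucose cultures of their line, and HCC1500 was the lowest line in both conditions. The change was -0.68 ± 0.12 (SE, adjusted p = 0.00069), -0.75 ± 0.14 (SE, adjusted p = 0.00027) and -1.74 ± 0.29 (SE, adjusted p = 0.00394) in the same order, and -1.99 ± 0.22 (SE, adjusted p = 3.7e-07) in HCC1500 without HG replicate 3.

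The other glycosylases did not share 1 direction. OGG1, which removes 8-oxoguanine, measured 64.2, 77.7, 49.0 and 44.8 against 53.3, 64.8, 51.9 and 49.9 in MDA-MB-175, with overlapping groups. It went from 96.4, 103, 86.0 and 81.7 to 65.1, 68.9, 74.8 and 58.9 in ZR-75-30 and from 174, 192, 199 and 183 to 100, 94.0, 172 and 99.7 in HCC1500. HG replicate 3 came close to the low-glucose cultures of HCC1500, while the other 3 lay far below them. OGG1 fell in ZR-75-30 (-0.45 ± 0.11 SE, adjusted p = 0.00207) and in HCC1500 (-0.72 ± 0.19 SE, adjusted p = 0.0271, or -0.92 ± 0.07 SE, adjusted p = 1.3e-09 without HG replicate 3), and its change was -0.07 in MDA-MB-175 (adjusted p = 0.784). MUTYH, which removes adenine paired with 8-oxoguanine, and MBD4, which acts on mispaired thymine and uracil, fell in ZR-75-30, with log2 changes of -0.47 and -0.37. TDG, the thymine glycosylase that also acts in DNA demethylation, rose in HCC1500, from 685, 664, 666 and 686 to 905, 942, 817 and 862 (0.38 ± 0.07 SE, adjusted p = 0.00749, or 0.42 ± 0.04 SE, adjusted p = 1.3e-08 without HG replicate 3). The TDG groups did not overlap, and the call was lost after rescaling to CPM (adjusted p = 0.114).

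NTHL1, which acts on oxidized pyrimidines, measured 78.7, 75, 75.2 and 66.6 at low and 59.1, 63.6, 52.3 and 56.3 at high glucose in MDA-MB-175. It went from 106, 87.6, 96.3 and 111 to 139, 116, 116 and 117 in ZR-75-30, and in HCC1500 from 67.6, 78.5, 79.8 and 81.8 to 62.5, 62.2, 198 and 54.0. HG replicate 3 was above every other HCC1500 culture. NTHL1 fell in MDA-MB-175 (-0.35 ± 0.10 SE, adjusted p = 0.0186), rose in ZR-75-30 (0.28 ± 0.09 SE, adjusted p = 0.0199) and had a change of 0.07 ± 0.37 (SE, adjusted p = 0.926) in HCC1500, or -0.36 ± 0.10 (SE, adjusted p = 0.0048) without HG replicate 3. MPG, the glycosylase for alkylated bases, measured 165, 157, 165 and 118 against 141, 114, 116 and 116 in MDA-MB-175, 280, 252, 263 and 234 against 361, 358, 335 and 276 in ZR-75-30, and 147, 166, 159 and 168 against 92.0, 109, 307 and 109 in HCC1500. The groups of all 3 lines overlapped. MPG fell in MDA-MB-175 (-0.30 ± 0.11 SE, adjusted p = 0.046), a call lost with a pseudocount of 5 (adjusted p = 0.0507), and rose in ZR-75-30 (0.36 ± 0.08 SE, adjusted p = 0.00077). In HCC1500 its change was -0.24 ± 0.34 (SE, adjusted p = 0.679), or -0.63 ± 0.08 (SE, adjusted p = 1.4e-06) without HG replicate 3.

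NEIL1, a glycosylase for oxidized bases and the member with the lowest level per length in ZR-75-30 and HCC1500 at low glucose, measured 13.3, 13.6, 19.4 and 9.92 at low and 18.7, 26.3, 29.7 and 23.3 at high glucose in ZR-75-30, with 1 low-glucose culture inside the range of the high-glucose group. It rose there (0.78 ± 0.22 SE, adjusted p = 0.00784). The values were 35.3, 25.5, 33.6 and 31.0 against 43.7, 36.4, 26.9 and 43.1 in MDA-MB-175 and 12.5, 11.8, 10.4 and 9.47 against 7.08, 11.4, 18.6 and 10.2 in HCC1500, with overlap in both. Their changes were 0.24 (adjusted p = 0.339) and 0.02 (adjusted p = 0.965, or -0.20 ± 0.23 SE, adjusted p = 0.472 without HG replicate 3). NEIL1 shares exon bases with MAN2C1 on the opposite strand, as do OGG1 with CAMK1 and MPG with NPRL3, and whether strand was used in counting is not given for these cultures, so part of these counts is uncertain. On the same strand, MUTYH and TDG share 1838 and 168 exon bases with other annotated genes. NEIL2 and SMUG1, glycosylases for oxidized bases and uracil, were called in no line with all samples, and without HG replicate 3 SMUG1 fell in HCC1500 (log2 change -0.73).

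The 8 genes acting after the glycosylases include the endonucleases APEX1 and APEX2, the gap-filling polymerase POLB, the ligases LIG1 and LIG3, the scaffold XRCC1 and the break sensors PARP1 and PARP2. In MDA-MB-175 4 of them fell, in ZR-75-30 2 fell and 1 rose, and in HCC1500 4 fell (7 without HG replicate 3). The share that fell in ZR-75-30 (25%) was near that of all genes (22.7%), while 50% fell in each of the other lines, against 13.7% and 13%. Without HG replicate 3, 87.5% fell in HCC1500, against 37.7% of all genes. In ZR-75-30 12.5% rose, against 23.4% of all genes. LIG1, the ligase that also joins Okazaki fragments, measured 405, 360, 403 and 306 at low and 303, 290, 284 and 295 at high glucose in MDA-MB-175. It was 542, 517, 485 and 476 against 248, 256, 276 and 232 in ZR-75-30 and 432, 474, 411 and 465 against 184, 221, 314 and 205 in HCC1500. No group pair overlapped, and the gap was narrowest in MDA-MB-175. The log2 change was -0.32 ± 0.08 (SE, adjusted p = 0.00488), -1.0 ± 0.06 (SE, adjusted p = 1.7e-10) and -0.97 ± 0.16 (SE, adjusted p = 0.00346) in the same order of lines, and -1.13 ± 0.06 (SE, adjusted p = 2.8e-11) in HCC1500 without HG replicate 3.

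PARP1, the most highly expressed of the 5 shared genes per kb of transcript, measured 2810, 2675, 2756 and 2728 at low and 2254, 2218, 2156 and 2136 at high glucose in MDA-MB-175. In ZR-75-30 it measured 4002, 4051, 4195 and 4088 against 3182, 3155, 3051 and 3034, and in HCC1500 2128, 2151, 2053 and 2011 against 1345, 1384, 1455 and 1389. All 3 lines showed separate groups with little spread, HG replicate 3 included. The change was -0.32 ± 0.04 (SE, adjusted p = 6.9e-06), -0.40 ± 0.03 (SE, adjusted p = 2.1e-08) and -0.58 ± 0.07 (SE, adjusted p = 0.00069) in the same order, and -0.60 ± 0.03 (SE, adjusted p = 7e-12) in HCC1500 without HG replicate 3. PARP2 was called in no line with all samples.

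**Figure D2:**
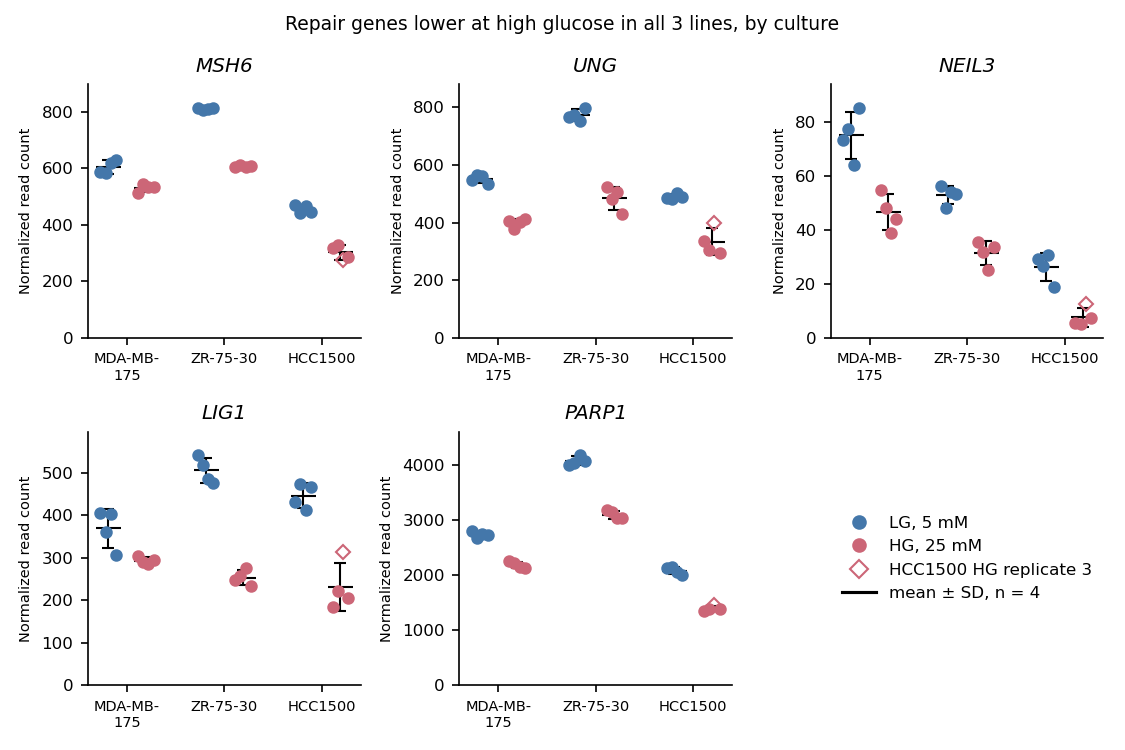
Normalized read count of the 5 genes that fell in all 3 lines, one point per culture (blue LG, red HG, open diamond HCC1500 HG replicate 3), with bars for the mean ± SD of 4 cultures and axes starting at 0. In every panel the high-glucose points of a line lie below its low-glucose points.

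XRCC1 and LIG3, whose proteins form a complex at single-strand breaks, differed between lines in their response. XRCC1 measured 266, 251, 245 and 239 against 217, 235, 208 and 221 in MDA-MB-175, 219, 220, 222 and 200 against 204, 230, 232 and 223 in ZR-75-30, and 196, 227, 219 and 217 against 136, 116, 205 and 129 in HCC1500. It fell in MDA-MB-175 (-0.18 ± 0.06 SE, adjusted p = 0.0331), where the call was lost after median-of-ratios rescaling (adjusted p = 0.0536), and in HCC1500 (-0.58 ± 0.17 SE, adjusted p = 0.0423, or -0.75 ± 0.07 SE, adjusted p = 3.1e-08 without HG replicate 3). Its groups overlapped in ZR-75-30 and, through HG replicate 3, in HCC1500. LIG3 measured 375, 368, 400 and 340 against 337, 358, 347 and 352 in MDA-MB-175, 267, 267, 248 and 215 against 293, 295, 298 and 278 in ZR-75-30, and 286, 304, 302 and 307 against 240, 224, 161 and 227 in HCC1500. The MDA-MB-175 groups overlapped, the ZR-75-30 high-glucose cultures lay above and the HCC1500 ones below. LIG3 rose in ZR-75-30 (0.23 ± 0.07 SE, adjusted p = 0.00892) and fell in HCC1500 (-0.51 ± 0.13 SE, adjusted p = 0.0247), where the call was lost after median-of-ratios rescaling (adjusted p = 0.109) but the change was -0.38 ± 0.05 (SE, adjusted p = 2.3e-06) without HG replicate 3. LIG3 shares exon bases with RFFL, and XRCC1 shares 224 with a gene on its own strand. POLB fell in MDA-MB-175 (-0.24 ± 0.07 SE, adjusted p = 0.0185), a call lost with DESeq2 (adjusted p = 0.0616). APEX1 and APEX2 were called in no line with all samples, and both fell in HCC1500 without HG replicate 3 (log2 changes -0.27 and -0.40).

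Nucleotide excision repair genes gave calls in both directions. Of the 13 members, 4 fell and 1 rose in MDA-MB-175, 1 fell and 3 rose in ZR-75-30, and 2 fell and 1 rose in HCC1500, with 9 and 1 in HCC1500 without HG replicate 3 and 0 and 1 after median-of-ratios rescaling with all samples. In HCC1500 the shares (15.4% lower and 7.69% higher) were near those of all genes (13% and 7.46%), as was the 23.1% that rose in ZR-75-30 (23.4%). The share that fell in ZR-75-30 was 7.69%, below the 22.7% of all genes. In MDA-MB-175 30.8% fell and 7.69% rose, against 13.7% and 11.9% of all genes. In HCC1500 without HG replicate 3, 69.2% fell and 7.69% rose, against 37.7% and 20.9%. After median-of-ratios rescaling, 0% fell and 7.69% rose in HCC1500, against 11% and 10.5%. Among the lesion sensors, XPC fell in MDA-MB-175 (-0.19 ± 0.06 SE, adjusted p = 0.0264), a call lost with DESeq2 (adjusted p = 0.0617). CETN2, which binds XPC, fell in MDA-MB-175 (-0.33 ± 0.07 SE, adjusted p = 0.00257) and ZR-75-30 (-0.31 ± 0.05 SE, adjusted p = 8.2e-05) and was -0.41 ± 0.21 (SE, adjusted p = 0.214) in HCC1500, or -0.66 ± 0.04 (SE, adjusted p = 5.9e-10) without HG replicate 3. RAD23B, which stabilises XPC, moved the other way. It measured 1767, 1717, 1757 and 1867 at low and 2030, 1995, 2001 and 2033 at high glucose in MDA-MB-175 and 1944, 1915, 1986 and 1988 against 2330, 2371, 2523 and 2376 in HCC1500, without overlap. RAD23B rose in MDA-MB-175 (0.18 ± 0.04 SE, adjusted p = 0.00208) and in HCC1500 (0.29 ± 0.07 SE, adjusted p = 0.0166, or 0.27 ± 0.03 SE, adjusted p = 6.7e-08 without HG replicate 3), the HCC1500 call being lost after rescaling to CPM (adjusted p = 0.0948), and its change was 0.00 in ZR-75-30. DDB1, a subunit of the ultraviolet damage sensor and of a ubiquitin ligase, fell in MDA-MB-175 (-0.14 ± 0.04 SE, adjusted p = 0.0218) and HCC1500 (-0.27 ± 0.07 SE, adjusted p = 0.024, or -0.29 ± 0.03 SE, adjusted p = 2.8e-08 without HG replicate 3), and the HCC1500 call was lost after median-of-ratios rescaling (adjusted p = 0.0847).

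Later steps gave few calls. ERCC8, which acts at stalled RNA polymerase, fell in HCC1500 (-0.45 ± 0.11 SE, adjusted p = 0.0229, or -0.43 ± 0.11 SE, adjusted p = 0.00184 without HG replicate 3), a call lost after median-of-ratios rescaling (adjusted p = 0.0623), and shares 1643 exon bases with GNL3LP1 on the same strand. The TFIIH helicases ERCC2 and ERCC3 rose in ZR-75-30 (0.19 ± 0.07 SE, adjusted p = 0.0251 and 0.19 ± 0.05 SE, adjusted p = 0.00885), the ERCC2 call being lost after rescaling to the mean total (adjusted p = 0.0561). ERCC1, which forms a nuclease with ERCC4, measured 409, 348, 426 and 368 at low and 336, 327, 323 and 362 at high glucose in MDA-MB-175. It was 454, 412, 451 and 448 against 504, 491, 497 and 459 in ZR-75-30 and 468, 486, 473 and 476 against 312, 309, 634 and 354 in HCC1500. The MDA-MB-175 groups overlapped, the ZR-75-30 groups did not, and in HCC1500 HG replicate 3 was above every low-glucose culture while the other 3 were below. ERCC1 fell in MDA-MB-175 (-0.20 ± 0.07 SE, adjusted p = 0.0357) and rose in ZR-75-30 (0.14 ± 0.05 SE, adjusted p = 0.0205), the latter call being lost after rescaling to CPM (adjusted p = 0.0601). In HCC1500 its change was -0.31 ± 0.21 (SE, adjusted p = 0.355), or -0.55 ± 0.05 (SE, adjusted p = 1.5e-08) without HG replicate 3. ERCC1 shares exon bases with POLR1G. ERCC4, ERCC5, ERCC6, DDB2 and XPA were called in no line with all samples, although without HG replicate 3 XPA, the damage verifier, fell in HCC1500 (log2 change -0.61).

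**Figure D3:**
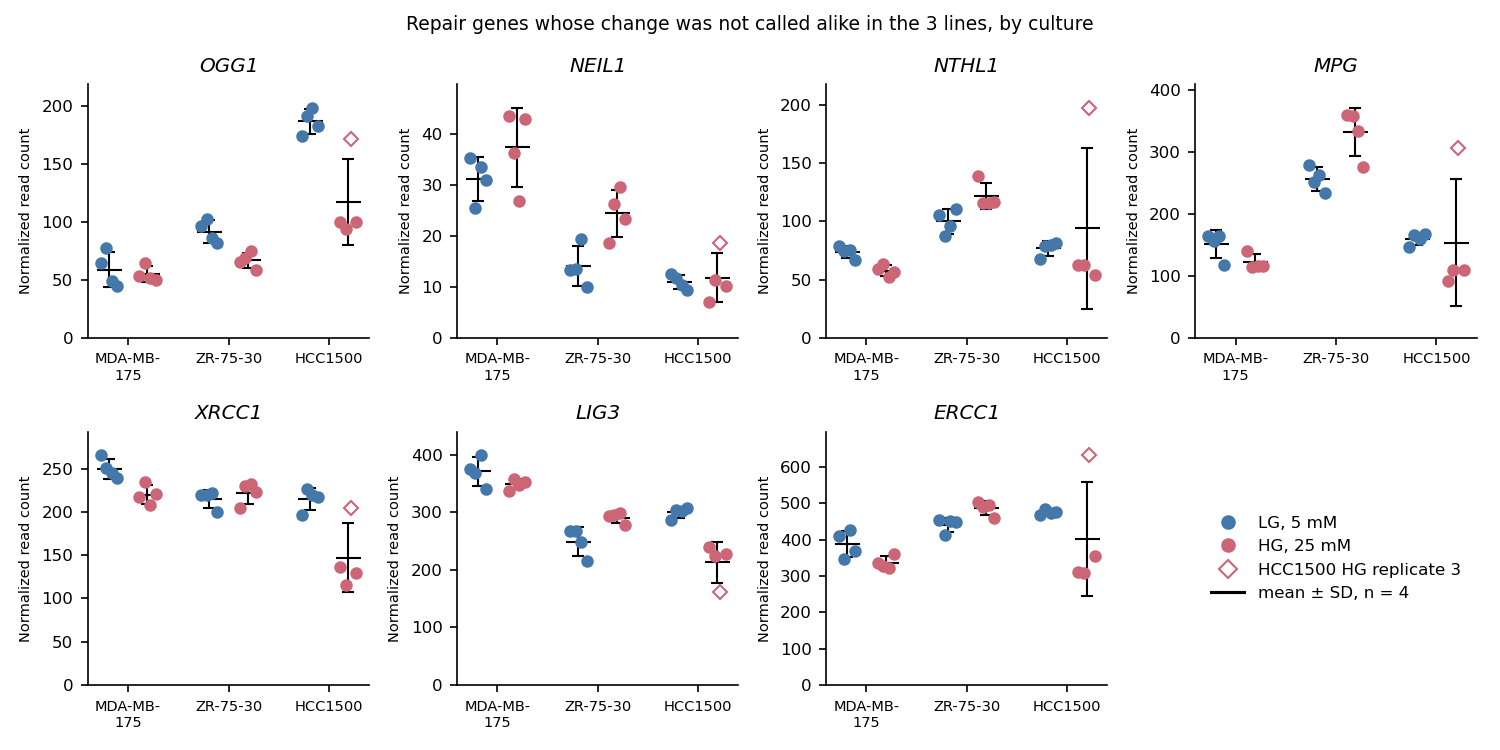
Normalized read count of 7 repair genes whose change was not called alike in the 3 lines, one point per culture with the mean ± SD of 4 cultures and axes starting at 0. HCC1500 HG replicate 3 (open diamond) measured 198 for NTHL1, 307 for MPG and 634 for ERCC1, above every other HCC1500 culture.

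The 5 shared genes were 13.5% of the members, and 3.32% of 14636 genes tested in all 3 lines were called lower in each. No member was called higher in all 3 lines, against 1.81% of genes. Without HCC1500 HG replicate 3 the number rose to 7 with MSH3 and CETN2, against 6.74% of 14572 genes, and 0 members were called higher in all 3, against 3.73%. Among the 32 other members, 9 fell and 1 rose in MDA-MB-175, 6 fell and 8 rose in ZR-75-30, and 5 fell and 2 rose in HCC1500. The shares that fell were 28.1%, 18.8% and 15.6% (13.7%, 22.7% and 13% of all genes). The shares that rose were 3.12%, 25% and 6.25% (11.9%, 23.4% and 7.46% of all genes). The 5 genes were left out because they fell, which lowers the shares that fell by construction. The shares of all genes keep such genes, so they cannot be set directly against those of the 32. Without HCC1500 HG replicate 3, 21 of the 32 fell in that line (65.6%, against 37.7%) and 2 rose (6.25%, against 20.9%). After median-of-ratios rescaling with all samples 2 fell and 2 rose in HCC1500 (6.25% each, against 11% and 10.5%). Proliferation genes moved with the condition in the same cultures. All 11 on a list of such genes fell in ZR-75-30 and MDA-MB-175, and 9 of 11 fell in HCC1500 (11 without HG replicate 3), with median log2 changes of -0.83, -0.54 and -1.54, respectively. Over all genes, 22.7%, 13.7% and 13% fell in these lines (37.7% in HCC1500 without that culture). Their summed level was 8303 to 8670 at low and 5913 to 6110 at high glucose in MDA-MB-175, and the ranges were 6004 to 6146 at low and 2985 to 3117 at high glucose in ZR-75-30, and 3969 to 4035 and 1488 to 2341 in HCC1500. Their part in the change of the repair genes was not tested.

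Partners outside the membership were counted from lists. Of 19 repair synthesis factors that also act in replication, 14 fell in MDA-MB-175 cells, 17 fell in ZR-75-30 cells and 6 fell in HCC1500 cells, and 0 rose, while without HG replicate 3 16 fell and 2 rose in HCC1500. These are 73.7%, 89.5% and 31.6% lower (84.2% without that culture), against 13.7%, 22.7% and 13% of all genes (37.7%). Without that culture 10.5% rose in HCC1500, against 20.9%. EXO1, the nuclease that removes the strand in mismatch repair, fell, with log2 changes of -0.50, -1.63 and -1.60 in the same order of lines. PCNA, the sliding clamp, fell in MDA-MB-175 (log2 change -0.22) and ZR-75-30 (-1.08) and measured a change of -0.31 in HCC1500. Of 14 TFIIH subunits and nucleotide excision partners, 2 fell and 2 rose in MDA-MB-175, 6 fell and 3 rose in ZR-75-30, and 1 fell and 1 rose in HCC1500 (4 and 3 without HG replicate 3). The shares of these that fell were 14.3%, 42.9% and 7.14% in that order, against 13.7%, 22.7% and 13% of all genes. The shares that rose were 14.3%, 21.4% and 7.14%, near those of all genes (11.9%, 23.4% and 7.46%). Without HG replicate 3, 28.6% fell in HCC1500, below the 37.7% of all genes, and 21.4% rose, near the 20.9% of all genes. Of 8 single-strand break partners, 2, 4 and 2 fell (5 in HCC1500 without HG replicate 3), and 1 rose, POLL in ZR-75-30. The shares that fell were 25%, 50% and 25%, against 13.7%, 22.7% and 13% of all genes. Without HG replicate 3, 62.5% fell in HCC1500, against 37.7%, and the share that rose in ZR-75-30 was 12.5%, against 23.4%.

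The response differed between lines for 10 of 37 members (27%), a share close to that of all genes (29.3% of 18144), by an interaction test over all 24 samples. These were MSH6, MLH3, TDG, NEIL3, LIG1, LIG3, XRCC1, PARP1, RAD23B and DDB1. Between single pairs of lines, 11.2% of all genes differed in response between ZR-75-30 and MDA-MB-175, 17.7% between HCC1500 and MDA-MB-175 and 25.2% between HCC1500 and ZR-75-30. NEIL3 fell further in HCC1500 than in MDA-MB-175 (difference -1.05, adjusted p = 0.0125) and than in ZR-75-30 (-0.99, adjusted p = 0.0134). LIG1 fell further in ZR-75-30 (-0.67, adjusted p = 0.0085) and HCC1500 (-0.65, adjusted p = 0.00714) than in MDA-MB-175. MSH6 also fell further in these lines than in MDA-MB-175 (-0.23, adjusted p = 0.0472, and -0.40, adjusted p = 0.00041). The opposite moves of LIG3 differed between HCC1500 and ZR-75-30 by -0.74 (adjusted p = 0.00022), and the change of TDG by 0.46 (adjusted p = 0.001). NTHL1, MPG and ERCC1 were called in opposite directions in MDA-MB-175 and ZR-75-30, yet their interaction tests gave adjusted p = 0.355, 0.22 and 0.188. Without HCC1500 HG replicate 3 these became 0.00024, 2.1e-05 and 1.4e-06, and 25 of 37 members (67.6%) were called, against 48.6% of 18127 genes.

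HCC1500 HG replicate 3 was above the other 3 high-glucose cultures for 25 of the 37 members, below them for 8, and above all low-glucose cultures for 17. Its deviation from the mean of the other 3 followed transcript length, with Spearman's rho of -0.82 over the 37 members and -0.68 over 12934 genes, all points coming from the same library. The median deviation was 0.86 on the log2 scale for 10 members under 2000 bases, 0.55 for 16 between 2000 and 4000 bases, and -0.32 for 11 longer ones. NTHL1 deviated by 1.72 and MPG by 1.56, while PMS2 deviated by -0.86 and LIG3 by -0.51. The cause of this pattern was not tested.

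**Figure D4:**
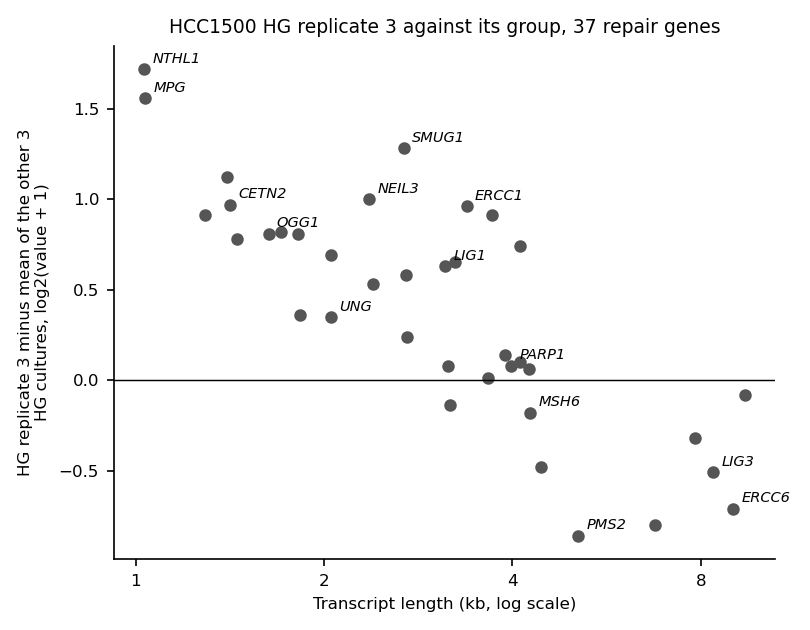
Deviation of HCC1500 HG replicate 3 from the mean of the other 3 high-glucose cultures on the log2(value + 1) scale, against transcript length in kb on a log axis, one point per repair gene. The short transcript NTHL1 lies at 1.72 and the long transcript PMS2 at -0.86, while some transcripts over 4000 bases, such as ERCC2 (0.74), lie above 0.

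At low glucose the lines differed in most members, as they did in most genes. Between ZR-75-30 and MDA-MB-175, 31 of 37 members differed (83.8%, against 73.1% of 17739 genes), between HCC1500 and MDA-MB-175 28 (75.7%, against 80.6%), and between HCC1500 and ZR-75-30 29 (78.4%, against 80.4%). In these pairs 15, 14 and 15 members were higher in the line named first, against 28.8%, 42.2% and 48% of all genes. That split depends on scaling, since after rescaling to CPM 10, 18 and 21 were higher and 20, 8 and 6 lower. After median-of-ratios rescaling 17, 13 and 10 were higher and 12, 14 and 18 lower, in the other direction for the first and last pair. With CPM the median over all genes went from -0.18, 0.06 and 0.25 to -0.30, 0.15 and 0.46 on the log2 scale. The largest ratio between lines was that of OGG1, whose mean was 187 in HCC1500, 91.8 in ZR-75-30 and 58.9 in MDA-MB-175. DDB1 averaged 3916, 3499 and 1509 in the same order, and PARP1 2086, 4084 and 2742. ERCC5, a nuclease of nucleotide excision, averaged 154, 313 and 400 in that order. It shares 3641 exon bases with BIVM-ERCC5 on the same strand, so part of its count is uncertain. PMS1, MLH3 and APEX1 were the most even, with ratios of 1.08, 1.09 and 1.11 between the highest and the lowest line. Per kb of transcript, APEX1 reached 742 to 821, PARP1 524 to 1027 and DDB1 355 to 922, while NEIL1 (2.97 to 8.45) and ERCC8 (5.63 to 7.59) were the lowest.

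**Figure D5:**
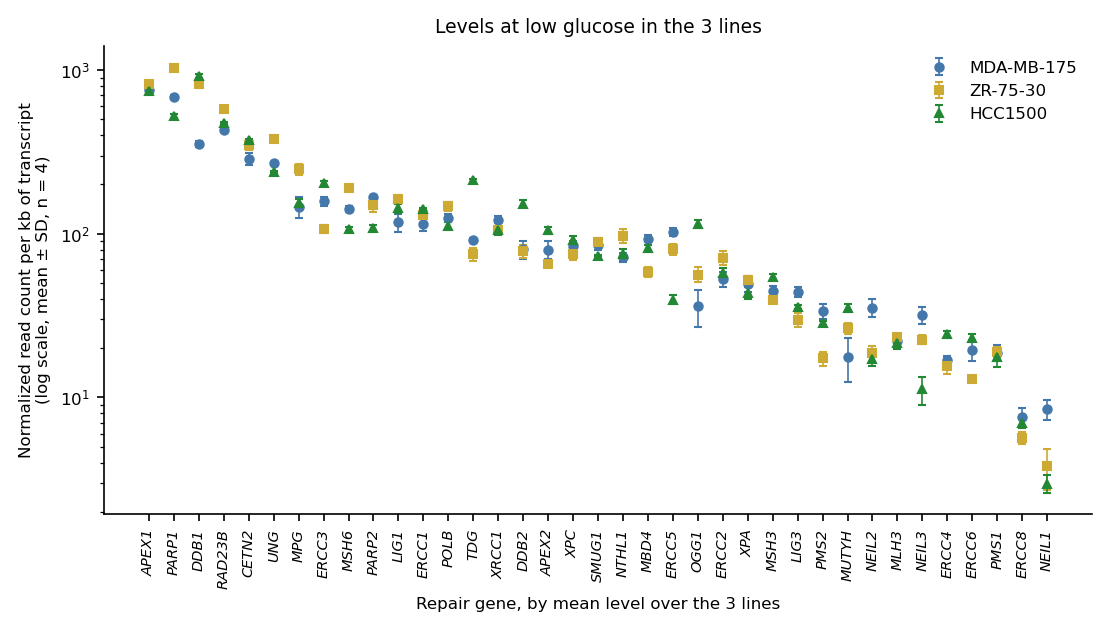
Level of each repair gene at low glucose per kb of transcript on a log axis, as mean ± SD of 4 cultures in MDA-MB-175 (circles), ZR-75-30 (squares) and HCC1500 (triangles), ordered by the mean over lines. APEX1, PARP1 and DDB1 stand at the top and ERCC8 and NEIL1 at the bottom, and OGG1 is spread from MDA-MB-175 to HCC1500.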

How the data were processed

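RNA was sequenced on an Illumina HiSeq, and the submitters' processing notes name hg38 and edgeR. The study's methods for tumors, xenografts and cultured cells describe stranded libraries and Tophat alignment to an earlier human build, in a paragraph that opens with tumors on another sequencer, so the aligner and build behind these cultures could not be settled. The deposited values (signal) are gene read counts that the authors divided by 1 scaling factor per sample, and 100.00% of them returned whole reads within 0.05. From these values, log2(value + 1) was fitted per line over 8 samples with limma 3.58.1 (R 4.3.3), keeping genes of at least 0.5 in 4 samples. P-values were adjusted by Benjamini-Hochberg over all genes, and 0.05 was the threshold. Differences in response were F tests on all 24 samples, and lines were compared on the 12 low-glucose samples. Members and lists were chosen with earlier results of these data known. Named with every value were members called in all lines, in opposite directions, or called with a log2 change of at least 0.5 in a line. RAD23B and TDG were added after their values were seen. Alternatives included edgeR 4.0.16 and DESeq2 1.42.0 on recovered reads. Gene models, transcript lengths and shared exon bases came from GENCODE 44 on GRCh37, matched by gene identifier for 96.3% of genes. The fits were tested on simulated data.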

Additional observations from a re-analysis of the deposited data

Results flagged for a closer look

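A single culture far from the other 3 of its group was found for 24 of 222 sets of 4 values, where chance flags about 1 in 20. Of these, 14 were HCC1500 HG replicate 3. That culture was high for the glycosylases SMUG1 (287), MBD4 (203), OGG1 (172), NTHL1 (198), NEIL2 (78.7) and MPG (307). It was also high for APEX1 (1533), POLB (249), PARP2 (198), CETN2 (660), ERCC2 (328), XPA (86.9) and ERCC1 (634), and low for ERCC4 (87.6).

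The other 10 lay in several groups. In MDA-MB-175, MPG was low in LG replicate 4 (118) and high in HG replicate 1 (141). In ZR-75-30 at low glucose, PMS2 stood apart in replicate 1 (74.8), XRCC1 in replicate 4 (200), RAD23B in replicate 3 (2454) and ERCC1 in replicate 2 (412). At high glucose in that line, PMS2 stood apart in replicate 2 (95.2) and NTHL1 in replicate 1 (139). In HCC1500, PMS1 stood apart in HG replicate 2 (41.3) and DDB1 in LG replicate 1 (3754).

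The response to glucose differed between lines for 10 members by the interaction test of limma. The adjusted p was 0.00074 for MSH6, 0.0221 for MLH3, 0.00201 for TDG, 0.0101 for NEIL3, 0.00358 for LIG1, 0.00062 for LIG3, 0.0125 for XRCC1, 0.00389 for PARP1, 0.00117 for RAD23B and 0.0213 for DDB1. Over the 10 alternatives tried for each, MSH6 was called in all (adjusted p from 0.00057 to 0.0475), MLH3 was lost in 6, DDB1 in 3, TDG in 1 (0.054 after rescaling to the mean total) and PARP1 in 1 (0.0543 with edgeR).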

How the results depend on the processing

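Of 46 calls of single members, 25 were lost in at least 1 setting. Among settings that kept every sample, a fit on all 24 samples lost 17, and the others lost 0 to 6. That fit called 6 members in MDA-MB-175 (5 lower) and 12 in ZR-75-30, and 17 in HCC1500 (15 lower). Leaving out 1 culture gave 9 to 16 called members in MDA-MB-175 (8 to 15 lower), the fewest without HG replicate 3 (9 called, 8 lower), with 8 lower without LG replicate 1 and 9 without LG replicate 3. In HCC1500 it gave 6 to 28 (5 to 26 lower), with 28 only without HG replicate 3 and 6 or 7 without any 1 low-glucose culture, and the response differed between lines for 9 to 25. Without HCC1500 HG replicate 3, as chosen after seeing the data, 23 were called after median-of-ratios rescaling (20 lower), 26 after rescaling to CPM (24 lower), 23 with edgeR (20 lower) and 20 with DESeq2 (18 lower).

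Replicates sharing a number did not deviate together (mean correlation 0.04, 0.01 and 0.02). The labels do not say whether the numbers pair the samples, and 4 numbers per line cannot exclude it. With the replicate block, 6 members were called in HCC1500, 6 of them lower, against 12 called without the block.

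No called value changed sign. Uncalled values near 0 did. In MDA-MB-175, ERCC3 became 0.00 with median-of-ratios rescaling and edgeR (-0.04 to 0.03 leaving out 1 culture), PMS1 -0.00 after rescaling to CPM or the mean total (-0.04 to 0.08), and OGG1 ranged from -0.19 to 0.07. In ZR-75-30, RAD23B became -0.04 after rescaling to CPM or the mean total and -0.00 with edgeR (-0.01 to 0.01). In HCC1500, rescaling to CPM and to the mean total gave MUTYH -0.01 and -0.01 (-0.14 to 0.18), NTHL1 -0.00 and -0.01 (-0.36 to 0.25), NEIL1 -0.03 and -0.05 (-0.20 to 0.22) and DDB2 -0.04 and -0.04 (-0.17 to 0.15). Leaving out 1 culture gave APEX1 -0.27 to 0.01, ERCC2 -0.26 to 0.01 and POLB -0.12 to 0.21. The cause of these shifts was not tested. In data simulated for single lines the spread was set larger for HCC1500 than for the other lines, and evenly over its samples. Of 50 genes lowered by 0.5 (log2), 24% were called in HCC1500, against 82% in MDA-MB-175 and 78% in ZR-75-30. The difference follows from that setting and does not measure what was detectable in the real HCC1500 samples. Among simulated calls, 10.7% were false for the difference in response and 7% for a pair of lines at low glucose. Both of these simulations set the same spread for every line and held no culture that stood apart as HCC1500 HG replicate 3 does.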
